A study of Homo sapiens with 18 samples.

Results

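The heat shock chaperone genes described here are HSPA1A, HSPA1B, DNAJB1, HSPH1, HSP90AA1, HSPA8, HSPB1, HSPD1, HSPE1 and BAG3. They were taken by name as a fixed set of 10 genes out of 58050 gene identifiers in the expression table, and all 10 were found and passed the filter on low values. Expression was measured in KNS-42, an established line of human paediatric glioma cells made to express the Cas9 nuclease and grown with puromycin, which all groups share. Parental cells stood beside DDX3Xoe cells, which over-express DDX3X from a codon-optimised sequence, and DDX3Yoe cells, which do so for DDX3Y. A lentivirus delivered guide RNA 395, aimed at the cells' own DDX3X gene, or a guide against AAVS1, a safe-harbour site used as the negative control. RNA was extracted on day 7 after transduction and sequenced from the 3′ ends of polyadenylated transcripts. This gave 6 groups of 3 libraries: parental with AAVS1, parental with 395, DDX3Xoe with AAVS1, DDX3Xoe with 395, DDX3Yoe with AAVS1 and DDX3Yoe with 395. Neither the promoter of the transgenes nor whether each line was 1 clone is given in the sources used here. The labels do not say whether replicates were separate cultures, so p-values measure the spread between these libraries, which may be technical.

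Heat shock chaperones bind unfolded proteins and help them fold, stay soluble or be degraded. The HSP70 proteins work in a cycle: J-domain proteins such as DNAJB1 bring in a client and start ATP hydrolysis, and exchange factors such as HSPH1, BAG3 and BAG1 release the nucleotide. HSP90AA1 finishes the folding of kinases and receptors, HSPB1 holds aggregating proteins, and HSPD1 and HSPE1 form the folding chamber of mitochondria. Under proteotoxic stress the transcription factor HSF1 binds inverted repeats of the letters nGAAn, called heat shock elements, and raises the inducible genes. DDX3X and DDX3Y are closely related DEAD-box RNA helicases of the X and Y chromosomes that act in translation and in stress granules.

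Libraries held 5.67 M to 13.2 M reads (M, mega) on genes, with a median of 8.85 M. DDX3X itself was read at 1780, 1923 and 1729 normalised reads (reads divided by the library's size factor) in parental cells with AAVS1 and at 861, 844 and 953 with guide 395. The log2 fold change was -1.03 with a limma adjusted p of 0.08, which became 0.0265 with DESeq2, 0.042 without DDX3Xoe AAVS1 replicate 1, 0.047 without DDX3Xoe 395 replicate 1 and 0.0121 without both. In DDX3Yoe cells DDX3X was at 1379, 1557 and 1439 with AAVS1 and at 878, 739 and 653 with 395. The log2 fold change there was -0.95 (limma p 0.00525 before adjustment), which did not pass after adjustment. In both cell lines the groups did not overlap, as for 20.6% of all genes in parental and 7.49% in DDX3Yoe cells. In DDX3Xoe cells the library labelled AAVS1 replicate 1 had 668 and the library labelled 395 replicate 1 had 1416, against 1504 and 1162 (AAVS1) and 716 and 578 (395) in the other replicates. Replicate 1 of DDX3Xoe thus went against its labels, and the DDX3Xoe comparisons are also given without it. The site of guide 395 was not given in the sources used here, so whether the 3′ reads bear on it is unknown. Of the 10 glioma, astroglial and neural progenitor markers, 8 had reads in every library, SOX2 at 8999 to 28885 normalised reads, whereas S100B and OLIG2 had none in all 18. The immune markers summed to 22.8 to 99.3 normalised reads in parental cells with AAVS1, 55.1 to 185 with 395 and at most 65.9 in the other groups. The endothelial ones summed to at most 78.8, with CLDN5 at 0 throughout. The epithelial ones summed to 178 to 375, nearly all on KRT8 and KRT18, and the neuronal ones to 221 to 703, of which SYT1 made up 207 to 694. Whether such reads bear on the chaperones was not tested.

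The promoters are shown first because these genes are known for shared control through heat shock elements and because 2 of them, HSPA1A and HSPA1B, are near-copies. Sequences are from RefSeq on GRCh38.p14, in windows from 250 bases before to 50 after each annotated start, and all 10 genes matched, with 14 windows. Capitals mark the letters GAANNTTC or TTCNNGAA, an inverted pair of repeat units that reads the same on both strands. The upstream stretches that no exon covers, 5′ to 3′ on the gene's strand, were chr6:31815293-31815463 (plus) for HSPA1A, chr6:31827488-31827734 (plus) for HSPA1B and chr19:14518421-14518647 (minus) for DNAJB1.
HSPA1A: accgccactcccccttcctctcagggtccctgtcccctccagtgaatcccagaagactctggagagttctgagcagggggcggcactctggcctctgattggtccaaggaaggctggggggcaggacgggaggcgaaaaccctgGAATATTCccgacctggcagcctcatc
HSPA1B: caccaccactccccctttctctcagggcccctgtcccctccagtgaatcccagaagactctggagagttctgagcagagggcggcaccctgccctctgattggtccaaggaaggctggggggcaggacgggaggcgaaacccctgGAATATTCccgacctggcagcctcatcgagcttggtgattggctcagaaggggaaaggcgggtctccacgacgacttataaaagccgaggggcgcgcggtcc
DNAJB1: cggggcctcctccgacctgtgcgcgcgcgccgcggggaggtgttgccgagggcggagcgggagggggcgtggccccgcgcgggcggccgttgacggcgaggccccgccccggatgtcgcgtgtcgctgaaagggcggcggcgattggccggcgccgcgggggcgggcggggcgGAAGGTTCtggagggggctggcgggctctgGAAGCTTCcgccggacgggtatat
The full windows of HSPA1A and HSPA1B were 92.0% identical, with 277 identical positions, 22 mismatches and 2 gaps. Each carried the pair 1 time, and the DNAJB1 stretch carried it 2 times.

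A longer form, the triple GAANNTTCNNGAA or TTCNNGAANNTTC, was found in HSP90AA1, HSPA8 and HSPD1. The sites lay on the minus strand at chr14:102087104-102087133 for HSP90AA1, chr11:123062353-123062367 and chr11:123062178-123062192 for HSPA8, and chr2:197500067-197500086 for HSPD1. Overlapping pairs share letters in them.
HSP90AA1: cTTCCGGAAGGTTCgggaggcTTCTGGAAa
HSPA8 upstream: tGAAAGTTCCAGAAc
HSPA8 near the start: cTTCTGGAAGGTTCt
HSPD1: tTTCTGGAAAGTTCTGGAAc
HSPD1 and HSPE1 lie head to head. Of the 2 annotated HSPD1 starts, the one with the site has 538 bases between it and the HSPE1 start and the other has 104, and the HSPD1 site lies 293 to 312 bases before the HSPE1 start, outside the HSPE1 window. In all, 7 of the 10 genes had a pair in at least 1 window and 3 had a triple. The same letters were in the windows of 16.18% and 0.61% of 27305 genes. The windows of HSPH1, HSPE1 and BAG3 held no pair, which says only that those letters are not there.

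**Figure D1:**
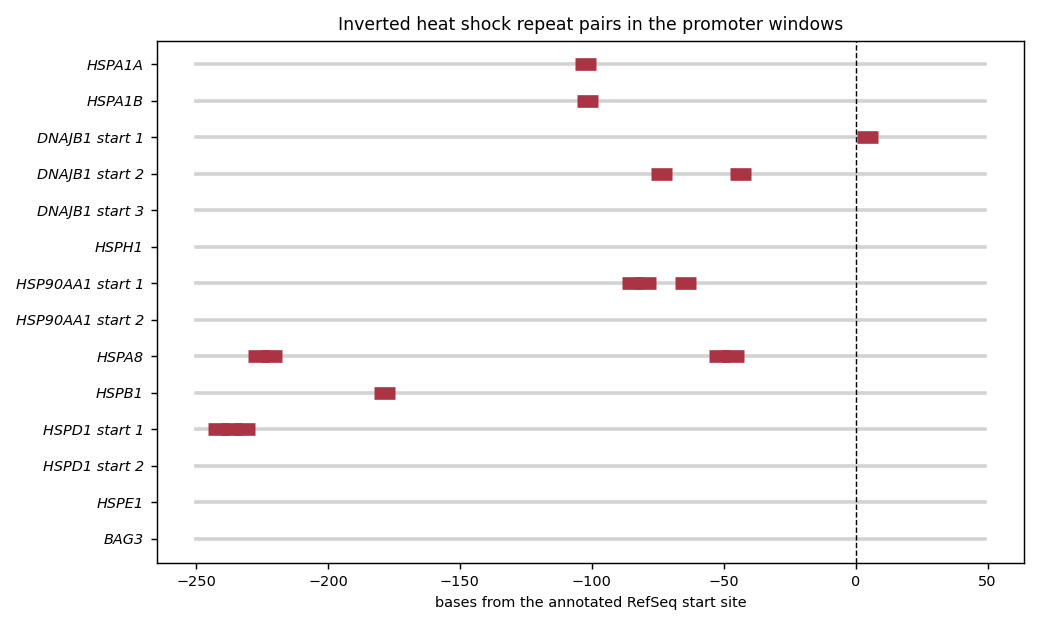
Position of each inverted repeat pair (red) in the 14 RefSeq promoter windows (grey, 250 bases before to 50 after the start), in bases from the annotated start (dashed). Of the 10 genes 7 have a pair, and HSPH1, HSPE1 and BAG3 have none. HSPA8 has 4, HSPD1 and HSP90AA1 have 3 each, and DNAJB1 has 2 in 1 window and 1 in another.

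The first question was whether targeting DDX3X moved these chaperones in cells with no transgene. In parental cells none of the 10 passed the limma test at an adjusted p under 0.05, where 1.78% of the 15228 genes tested did (271 genes, or 677 with the replicate number as a block, which called none of the 10 either). Before adjustment HSP90AA1 alone had p under 0.05, a level that 16.9% of all genes reached. Count models on the recovered reads, edgeR and DESeq2, also called none of the 10. There were 5 members with a positive and 5 a negative log2 fold change (395 over AAVS1), with a median of -0.05 against 0.02 over all genes. Their median size regardless of sign was 0.42, the same as over all genes. The groups did not overlap for 2 members, HSPA1A and HSP90AA1, where this held for 20.6% of all genes. These differences rest on RNA from whole cultures, in which fewer cells with a transcript and less of it per cell cannot be told apart.

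HSPA1A and HSPA1B encode the same stress-inducible HSP70 protein from neighbouring genes in the major histocompatibility region (chr6:31815464-31817946 and chr6:31827735-31830255, plus strand). HSPA1A was thinly covered, at 16.1, 1.24 and 11.2 normalised reads with AAVS1 and 32.5, 17.7 and 19.8 with guide 395. Every 395 library was above every AAVS1 library, but they stand on 1 to 37 reads. The log2 fold change was 1.60 (SE 0.87, 95% interval -0.22 to 3.43), with a limma adjusted p of 0.367. With 1 library left out at a time it lay between 0.71 and 2.17. HSPA1B was at 553, 206 and 200 with AAVS1 and at 756, 395 and 419 with 395. The AAVS1 replicate 1 library lay above 2 of the 3 libraries with 395, so the groups overlapped, although each 395 library exceeded the AAVS1 library of its own number. Its log2 fold change was 0.82 (SE 0.54, 95% interval -0.32 to 1.96; limma adjusted p 0.47). With near-identical copies, reads could be split between the genes. HSPA1A held between 0 and 5.61% of their joint reads, and with both added up the log2 fold change was 0.84 (adjusted p 0.451).

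HSPA8 (chr11:123057489-123063230, minus strand), the constitutive HSP70, was the member that varied most between replicates. It was at 1276, 88.1 and 225 normalised reads with AAVS1 and at 1276, 360 and 253 with guide 395. In both groups replicate 1 was several-fold above the others. The log2 fold change of 0.73 had an SE of 0.87 and a 95% interval of -1.11 to 2.57 (limma adjusted p 0.724), so neither a fall nor a large rise is outside what these libraries allow.

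The partners of HSP70 showed no common direction. DNAJB1 (chr19:14514770-14529770, minus strand), the J-domain protein that pairs with inducible HSP70, was at 1572, 3622 and 2875 with AAVS1 and at 1775, 1979 and 2004 with 395. Its 395 libraries sat close together inside the AAVS1 range, for a difference of -0.41 in log2 units (SE 0.27; limma adjusted p 0.476; -0.75 to -0.15 with 1 library left out). HSPH1 (chr13:31134974-31162388, minus strand), an HSP110 exchange factor, was at 1401, 1945 and 2143 with AAVS1 and at 1268, 2610 and 2081 with 395. BAG3 (chr10:119651370-119677819, plus strand), the exchange factor that links HSP70 and small heat shock proteins to autophagy, was at 575, 149 and 210 and at 473, 181 and 228. For both, replicate 1 stood apart in each group, low for HSPH1 and high for BAG3. Their log2 fold changes were 0.08 (SE 0.36) and 0.04 (SE 0.54), the latter below 0 after median-centring, quantile normalisation, edgeR and DESeq2.

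HSP90AA1 (chr14:102080738-102139699, minus strand), the stress-inducible cytosolic HSP90, had the lowest p of the set. It was at 10806, 19063 and 8633 normalised reads with AAVS1 and at 6347, 8059 and 6519 with guide 395. All 3 libraries with 395 lay below all 3 with AAVS1, and AAVS1 replicate 2 stood far above the rest. The log2 fold change was -0.80 (SE 0.30, 95% interval -1.44 to -0.17), and the limma adjusted p of 0.176 missed the threshold. Across the alternatives the adjusted p ran from 0.0514, with DESeq2, to 0.594, and with 1 library left out at a time the log2 fold change lay between -1.05 and -0.48. HSPB1 (chr7:76302544-76304295, plus strand), the small heat shock protein HSP27, was at 8093, 14865 and 8279 with AAVS1 and at 5975, 7793 and 8852 with 395. It shared the high AAVS1 replicate 2 library, overlapped between guides and differed by -0.42 in log2 units, which did not pass (SE 0.32; limma adjusted p 0.53; -0.58 to -0.14 with 1 library left out).

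The mitochondrial pair did not pass either. HSPD1 (chr2:197486581-197516737, minus strand), the HSP60 chamber subunit, was at 2473, 2558 and 3357 with AAVS1 and at 1903, 2495 and 2248 with 395. Each 395 library was below the AAVS1 library of its number, while the groups overlapped by 1 library. Its log2 fold change was -0.33, with the narrowest interval of the set, -0.81 to 0.15 (limma adjusted p 0.497). HSPE1 (chr2:197499994-197503457, plus strand), the HSP10 lid, was at 1913, 1039 and 729 with AAVS1 and at 1453, 953 and 766 with 395. Replicate 1 was the highest in each group, and the log2 fold change was -0.15 (SE 0.46). These 4 members, HSPA1A and HSPA1B upward and HSP90AA1 and HSPD1 downward, kept 1 direction in 3 of 3 same-numbered pairs, as did 46.8% of all genes.

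**Figure D2:**
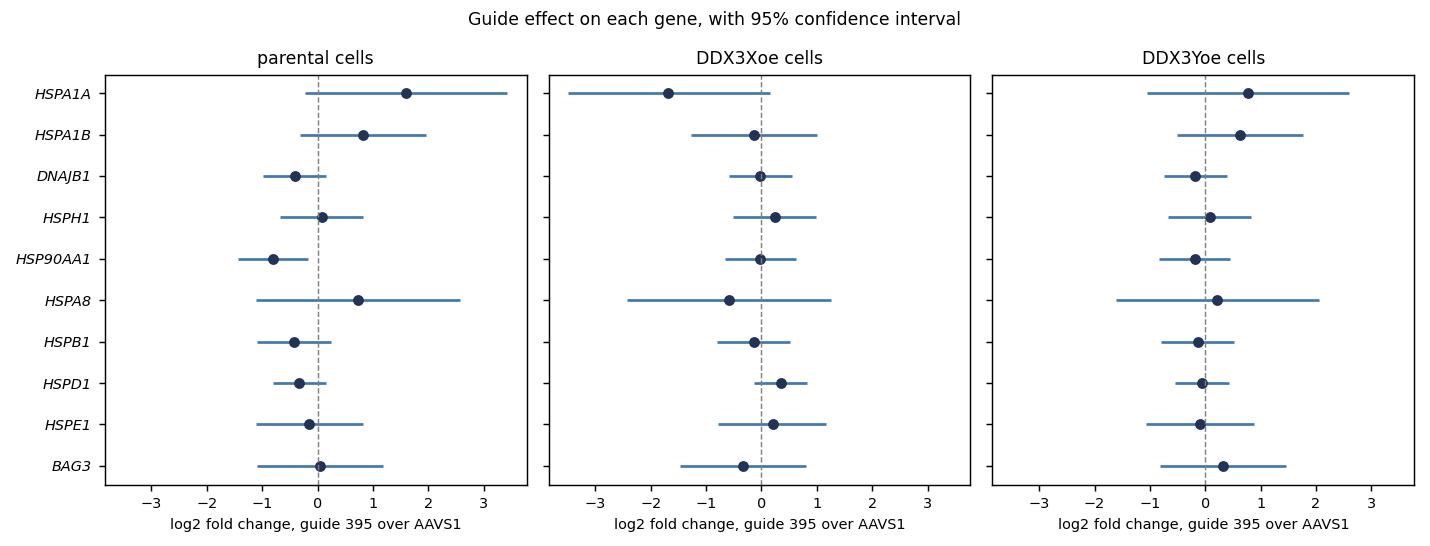
Log2 fold change of each gene, guide 395 over AAVS1, in parental, DDX3Xoe and DDX3Yoe cells, as points with 95% confidence intervals from limma over all 18 libraries (3 per group). The interval of HSP90AA1 in parental cells, -1.44 to -0.17, is the only one of the 30 that leaves out 0, and its adjusted p was 0.176.

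In DDX3Xoe cells, which carry a codon-optimised copy of the targeted gene, guide 395 again called none of the 10 with limma, nor any of the 15228 genes (0%). No member had a p under 0.05 before adjustment (2.07% of all genes did), and the count models edgeR and DESeq2 called none of the 10. No member's groups were apart, against 3.87% of all genes. The fold changes ranged from -1.68 for HSPA1A to 0.35 for HSPD1 on the log2 scale, with a median of -0.08 beside -0.02 over all genes. HSPA1A was at 23.6, 6.39 and 6.61 normalised reads with AAVS1 and at 6.85, 0 and 4.39 with 395. The 0 is a library with 5.67 M reads, where 3 reads, the limit that a count of 0 allows, equal 0.529 counts per M reads. HSPD1 was at 2214, 2406 and 2772 with AAVS1 and at 4155, 2522 and 2920 with 395, the highest value of all 18 being in the library labelled 395 replicate 1. HSPA1B was at 481, 108 and 221 with AAVS1 and at 194, 334 and 135 with 395, which overlapped throughout.

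Leaving out both DDX3Xoe replicate 1 libraries took HSPD1 from 0.35 to 0.07. It kept HSPA1A at -1.69, with its groups then apart on 0 to 8 reads a library (share over all genes not counted). It moved HSPA1B from -0.13 to 0.46, HSPA8 from -0.59 to 0.14 and BAG3 from -0.34 to 0.29, with none of the 10 called. The guide effects of these 3 genes in DDX3Xoe cells therefore had no direction that held without those libraries.

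In DDX3Yoe cells, which carry the codon-optimised Y-linked paralogue, none of the 10 and 0% of all genes passed with limma, and before adjustment no member and 1.0% of all genes had p under 0.05. Neither edgeR nor DESeq2 called a member. Only HSPA1A did not overlap between guides, at 5.75, 1.29 and 6.01 normalised reads with AAVS1 and at 6.79, 7.60 and 7.01 with 395, where 7.49% of all genes did not. These are 1 to 10 reads a library, and the log2 fold change was 0.77 (SE 0.87). The other 9 lay between -0.19 for HSP90AA1 and 0.62 for HSPA1B, with a median over the 10 of 0.01. HSP90AA1 was at 11887, 10720 and 7967 with AAVS1 and at 10948, 9044 and 6855 with 395. The groups overlapped over most of their range.

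**Figure D3:**
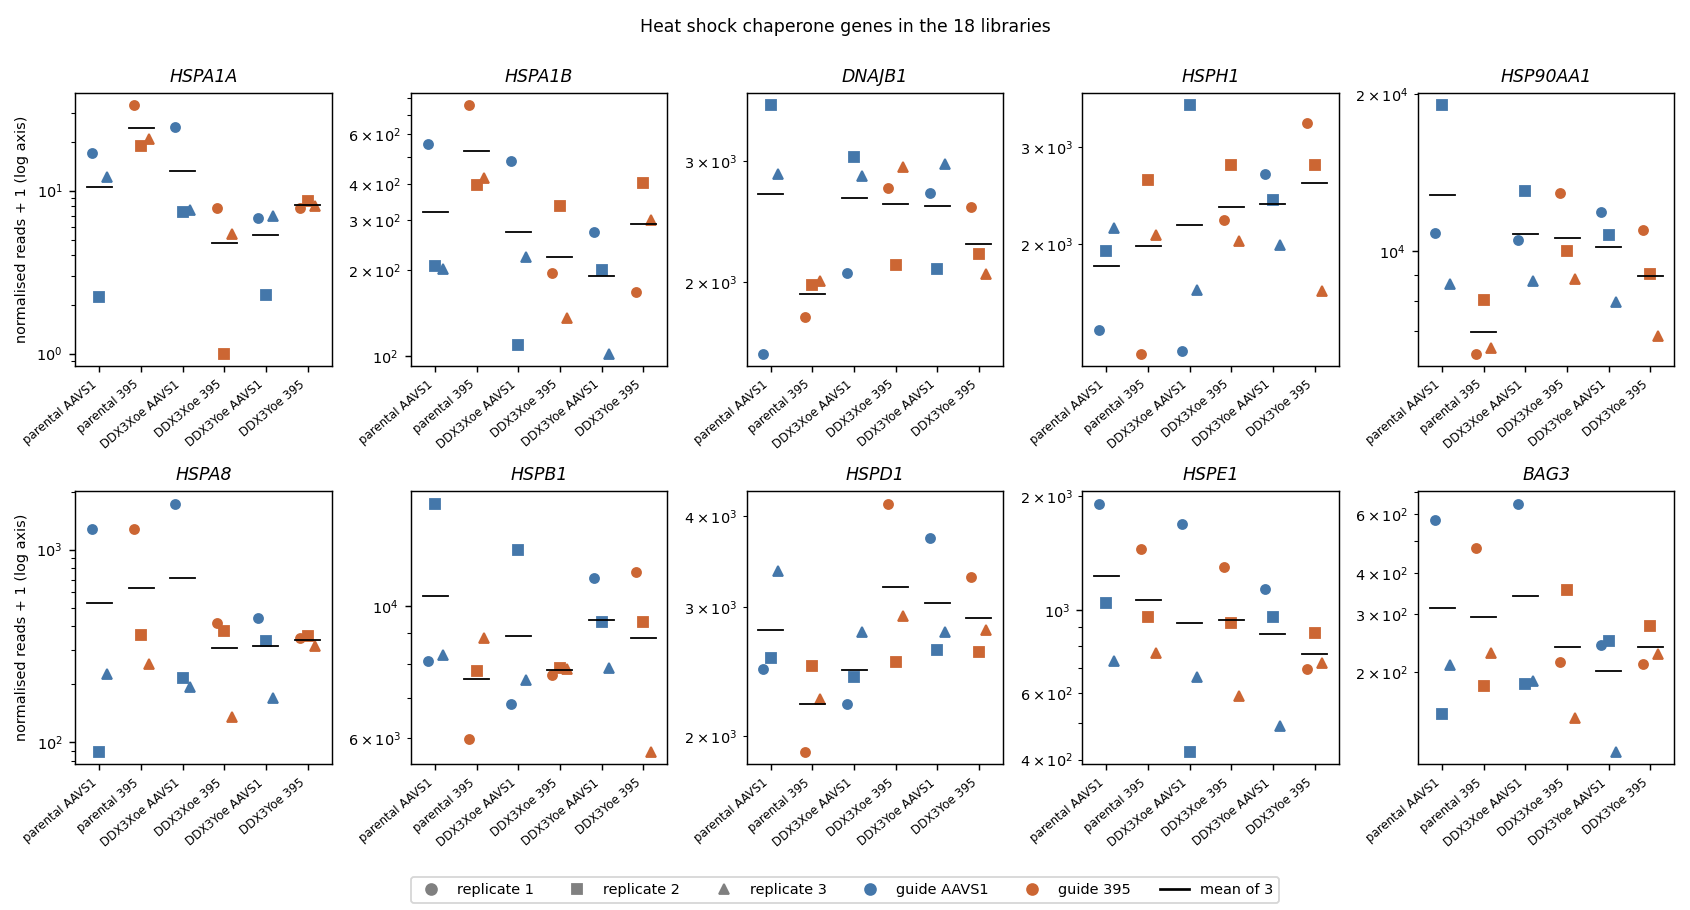
Normalised reads plus 1 (log axis) of the 10 genes in the 18 libraries, by group, with the replicate as marker shape, the guide as colour and the mean of 3 as a bar. HSP90AA1 with guide 395 in parental cells (6347 to 8059) lies below the AAVS1 libraries (8633 to 19063), whereas HSPA8 spans 88.1 to 1276 within parental AAVS1 alone.

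Whether the guide effect differed between cell lines was tested as a difference of fold changes. Between DDX3Xoe and parental cells 0 of 10 members passed with limma (0.046% of all genes did), and edgeR and DESeq2 called none either. HSPA1A had the largest difference, -3.28 (SE 1.23, 95% interval -5.86 to -0.70), and was the only member with an unadjusted p under 0.05, as were 8.14% of all genes. Its limma adjusted p was 0.509. The value depends on the number added before taking logs, being -4.65 with 0.1 and -2.03 with 5 in place of 1, as does the effect within DDX3Xoe cells (-2.79 and -0.92). HSP90AA1 differed by 0.78 (95% interval -0.12 to 1.68) and HSPD1 by 0.68 (95% interval 0.00 to 1.37). Neither passed, and the difference of HSPD1 was 0.40 without the DDX3Xoe replicate 1 libraries. Between DDX3Yoe and parental cells the members ranged from -0.83 (HSPA1A) to 0.61 (HSP90AA1), and between DDX3Yoe and DDX3Xoe from -0.41 (HSPD1) to 2.45 (HSPA1A), or from -0.58 (HSPE1) to 2.46 (HSPA1A) without the DDX3Xoe replicate 1 libraries. In both, limma, edgeR and DESeq2 called 0 of 10 members, limma called 0% of all genes, and before adjustment no member had p under 0.05 (4.84% and 1.49% of all genes did). These differences share libraries with the single guide effects and with each other.

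The cell lines were also compared under the control guide, where DDX3X is not targeted. In each of the 3 comparisons 0 of 10 members and 0% of all genes passed with limma, and the count models edgeR and DESeq2 called no member. Before adjustment 0 of 10 members had p under 0.05 in each, beside 0.985% of all genes for DDX3Xoe minus parental, 2.64% for DDX3Yoe minus parental and 0.893% for DDX3Yoe minus DDX3Xoe. DDX3Xoe minus parental ranged from -0.54 for HSPE1 to 0.52 for HSPA1A, with a median of -0.07, and no member's groups were apart (3.13% of all genes). Without DDX3Xoe replicate 1 it ranged from -1.10 for HSPE1, whose groups were then apart, to 0.43 for HSPH1, with a median of -0.14. With fewer libraries groups part more easily, and the share of all genes apart without this replicate was not counted. DDX3Yoe minus parental ranged from -0.70 for HSPA1A to 0.38 for HSPH1, with a median of -0.18, and again none was apart (8.76% of all genes). DDX3Yoe minus DDX3Xoe ranged from -1.23 for HSPA1A to 0.29 for HSPD1. HSPA1A was there the only member whose groups did not overlap, as for 4.21% of all genes, on 1 to 24 reads a library. Without DDX3Xoe replicate 1 the difference of HSPA1A was -0.65, its groups still did not overlap (share over all genes not counted), and the highest value was 0.62 for HSPE1. No member was called in these comparisons without that replicate.

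The spread within groups differed widely among the 10 genes. HSPA8 had a within-group SD of 1.28 on the log2 scale, larger than that of 93.2% of all genes tested, and HSPA1A, with few reads, had 1.08. HSPD1 had 0.25, which only 8.12% of all genes were below, and DNAJB1 0.33, HSP90AA1 0.35 and HSPB1 0.38 also lay under the median of 0.51. Of the variance over the 18 libraries, 92.4% of HSPA8's, 91.3% of BAG3's and 86.2% of HSPE1's lay within groups, beside a median of 71.0% over all genes. For HSPD1 it was 57.0%, for HSP90AA1 56.3% and for HSPA1A 50.1%. HSPH1 (83.4%), HSPB1 (82.3%) and DNAJB1 (73.8%) were also above the median of 71.0%, and the 50.1% of HSPA1A was the lowest share of the 10. A larger share within than between groups was thus common to all 10 and to the median gene.

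These replicate differences fell in the same libraries for several genes. HSPA8 was highest in DDX3Xoe AAVS1 replicate 1 (1733), parental AAVS1 replicate 1 (1276) and parental 395 replicate 1 (1276), and the other 15 libraries lay between 88.1 and 441. BAG3 was at 646, 575 and 473 in these libraries, in that order, and at 114 to 354 elsewhere. HSPE1 was at 1689, 1913 and 1453 and HSPA1B at 481, 553 and 756, beside highest values elsewhere of 1299 and 419. HSPH1 went the other way, at 1280, 1401 and 1268, below all of the other 15 (1644 to 3573). So 4 of the 10 genes had their 3 highest values in these libraries and 1 its 3 lowest, where the same held for 9.6% and 5.15% of all genes. The libraries were picked out after their values were seen. They also had the lowest scores on the first principal component of all genes tested, -76.3, -63.8 and -102.7 in the same order. The next scores, -28.8 and -21.8, were those of parental 395 replicates 2 and 3, so low scores also went with that group. That component held 26.5% of the variance, and what it stands for was not tested.

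**Figure D4:**
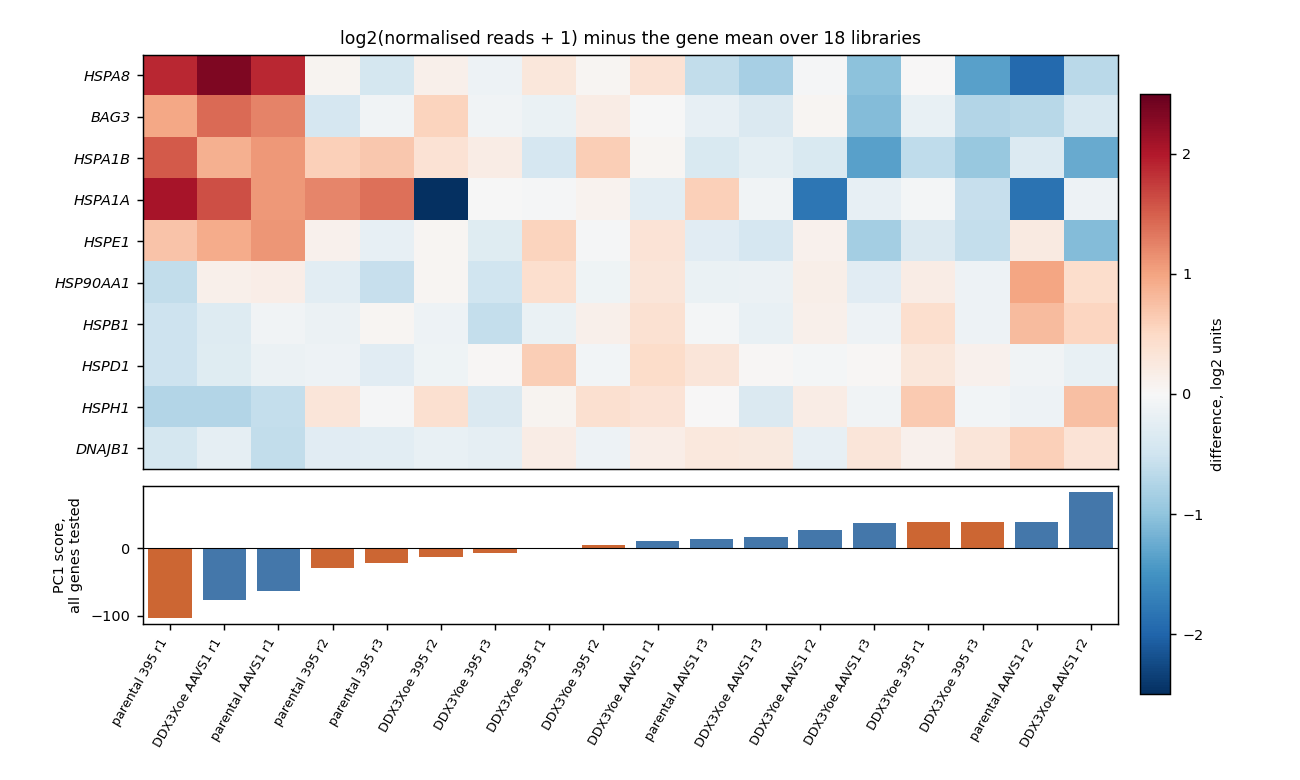
Upper panel: log2(normalised reads + 1) of each gene minus its mean over the 18 libraries (colour), with libraries in order of their score on the first principal component of all genes tested. Lower panel: that score, with guide 395 in orange and AAVS1 in blue (r, replicate). HSPA8, BAG3, HSPA1B and HSPE1 are red and HSPH1 is blue in the 3 leftmost libraries, whose scores are -102.7, -76.3 and -63.8.

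Across the 18 libraries the members did not move as 1 group. HSPA1B and BAG3 had a Pearson r of 0.80 and HSPA1B and HSPE1 of 0.76, while HSPA1B and DNAJB1, its J-domain partner, had -0.82 (Spearman -0.81, and -0.79 without the 2 libraries farthest from the median of HSPA1B). HSPD1 and HSPE1, whose proteins form 1 machine and whose starts are neighbours, had a Pearson r of -0.14 and a Spearman rho of -0.27, and an r of -0.51 without the 2 libraries farthest from the median of HSPD1. The genes most like HSPA1B were CLEC2B (r 0.96), CDC42SE1 (0.95) and TM9SF2 (0.95). For DNAJB1 they were TRAPPC2L (0.94), MRPS18B (0.93) and VPS25 (0.93), and for HSPD1 LINC00324 (0.90), PFDN4 (0.86) and ARL6IP5 (0.86). No heat shock chaperone was among these 9, of which PFDN4 is a subunit of the prefoldin co-chaperone. The points share libraries, groups and the first component above, so these r values describe the libraries.

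The wider chaperone network was read from 9 lists of 93 further genes, of which 84 were tested, and from a list of chaperones of the endoplasmic reticulum. In parental cells 1 of the 84 rose and 0 fell with guide 395, where 1.78% of all genes tested were called, and in the 8 other comparisons limma called none. DESeq2 called 1 higher and 4 lower of the 84 in parental cells, where it called 927 of all 15228 genes. There edgeR called 1 higher, and 244 of all genes. The gene that rose was BAG1, an HSP70 exchange factor that also binds the anti-apoptotic BCL2. It was at 1251, 2178 and 1174 normalised reads with AAVS1 and at 4627, 3988 and 5160 with 395. Its means were 1534 ± 559 and 4592 ± 586 (SD, n = 3), and the lowest 395 library was well above the highest AAVS1 library. The groups did not overlap, in either direction, for 20.6% of all genes. The log2 fold change was 1.63 (SE 0.28; limma adjusted p 0.00893, 0.0157 with edgeR). The call was lost without all replicate 1 libraries (log2 fold change 1.5, adjusted p 0.139) and in a fit on the parental groups alone (1.63, adjusted p 0.0502). In DDX3Xoe cells BAG1 was at 1546, 1686 and 982 with AAVS1 and at 1234, 1366 and 1388 with 395, and in DDX3Yoe cells at 1162, 1753 and 1142 and at 1977, 1422 and 1142. The guide effect was lower by 1.67 (adjusted p 0.22) in DDX3Xoe and by 1.48 (adjusted p 0.882) in DDX3Yoe than in parental cells on the log2 scale, and limma did not call either difference. DESeq2 called the difference between DDX3Xoe and parental cells (-1.64, adjusted p 0.0376), as it did for 86 of all 15228 genes. The edgeR fit did not call it (adjusted p 0.265).

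Among the regulators, 0 of 5 tested genes passed in parental cells. HSBP1, which binds and restrains HSF1, was at 2789 ± 1226 with AAVS1 and 2288 ± 342 with 395, and HSF2, a second heat shock factor, at 581 ± 103 and 579 ± 123 (SD, n = 3). None of 7 other HSP70 and HSP110 genes passed. HSPA4L, picked out after its values were seen, was called lower with the replicate number as a block within each cell line. That fit called 737 of all 15228 genes. HSPA9, the mitochondrial HSP70, was at 947 ± 586 and 682 ± 57.4, and HSPA4, an HSP110 relative, at 848 ± 37.1 and 835 ± 86.1. None of 15 HSP90 genes and co-chaperones passed, with HSP90AB1, the constitutive HSP90, at 9507 ± 2129 and 7487 ± 1379 and CDC37, which brings kinases to HSP90, at 4521 ± 1084 and 3381 ± 551.

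Neither did any of 11 J-domain genes, where DNAJA1, a cytosolic HSP70 partner, was at 2181 ± 741 and 3582 ± 736 (log2 fold change 0.76, adjusted p 0.159). DNAJC8, a nuclear J-domain protein of the splicing machinery, was at 2243 ± 160 and 2136 ± 289. Of 4 small heat shock genes tested, CRYAB (alpha-B crystallin) was at 648 ± 62.0 and 717 ± 14.1 and HSPB6 (HSP20) at 230 ± 78.5 and 83.1 ± 29.1. For HSPB6 the difference was -1.46 in log2 units, its adjusted p being 0.0591. It came under the threshold in the blocked fit (0.0284), with DESeq2 (0.0086), with a filter of 50 (0.0497), without parental AAVS1 replicate 1 (0.0466), without both DDX3Xoe replicate 1 libraries (0.0424), and without DDX3Xoe AAVS1 replicate 1 (0.0348) or 2 (0.0438). The fit with a block within each cell line called HSPB6 too. TRAP1, the mitochondrial HSP90, likewise differed by -0.76, its adjusted p being 0.0752 or, blocked, 0.0391, and 0.0129 with DESeq2. It was picked out after its values were seen.

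In the mitochondrial list (15 genes) and in the cytosolic TRiC chaperonin with prefoldin (14 genes) limma and edgeR called no gene. DESeq2, which called 927 of all 15228 genes, called TRAP1 in the first list and CCT5 and CCT7 in the second. LONP1, a matrix protease, was at 2201 ± 1719 and 980 ± 371, and SPG7, an inner-membrane protease subunit, at 1139 ± 392 and 924 ± 118. The TRiC and prefoldin list had 2 genes above 0 and 12 below, with a median log2 fold change of -0.36, beside 0.02 over all genes. Its subunits CCT6A and CCT3 were at 4386 ± 1817 and 3221 ± 460 with AAVS1 and at 3203 ± 246 and 2437 ± 599 with 395. CCT7 was at 2556, 3651 and 1839 with AAVS1 and at 1507, 1285 and 1537 with 395, and CCT5 at 2604, 3357 and 2773 and at 1899, 1891 and 1926. For both, every 395 library lay below every AAVS1 library, where the groups did not overlap, in either direction, for 20.6% of all genes. The log2 differences were -0.84 for CCT7 (limma adjusted p 0.0787, 0.0134 with DESeq2) and -0.60 for CCT5 (limma adjusted p 0.115, 0.0253 with DESeq2). Without parental AAVS1 replicate 3 limma also called CCT7 (adjusted p 0.0313). These 2 subunits were picked out after their values were seen. Of 17 other heat-induced genes, which include HSPA4L above, 0 passed. UBB, which encodes polyubiquitin, was at 4157 ± 1553 with AAVS1 and 3283 ± 285 with 395. None of the 13 chaperones of the endoplasmic reticulum passed. HSPA5 (BiP) was at 30160 ± 33322 and 14934 ± 3408, and CANX (calnexin) at 9620 ± 4322 and 7087 ± 977. The glioma marker NES, an intermediate filament of neural progenitors, fell in the same comparison by 1.71 on the log2 scale (adjusted p 0.00314, or 0.0577 without all replicate 1 libraries), and its part in the chaperone values was not tested.

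**Figure D5:**
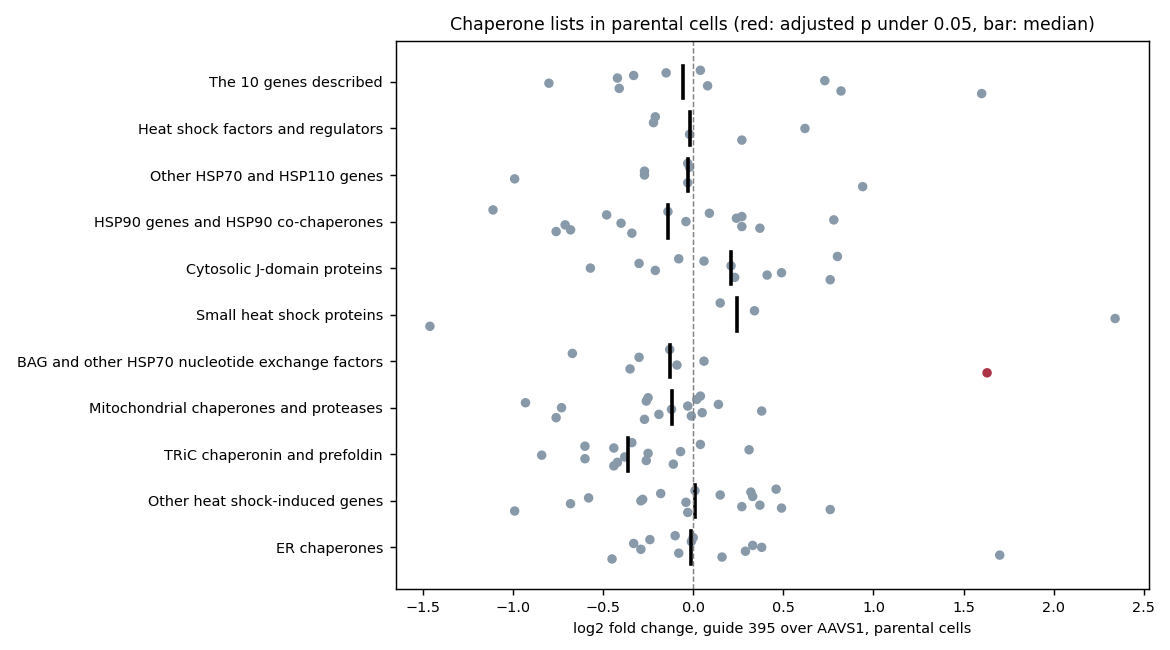
Log2 fold change of every tested gene of the 10 chaperone lists and of the 10 genes described, guide 395 over AAVS1 in parental cells, with list medians as bars. BAG1, at 1.63, is the only gene with an adjusted p under 0.05 (red), and the TRiC and prefoldin median is -0.36.

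HSPA8 had 17 pseudogene rows with 11 reads in all libraries together, HSPD1 17 rows with 85, HSPE1 26 rows with 34, HSPB1 2 rows with 11 and HSP90AA1 4 rows with 79. That is at most 0.189% of the reads of the gene. The read-through gene HSPE1-MOB4 had 0 reads. HSPA1L, the HSP70 gene next to HSPA1A, had 413 reads in all libraries together, more than the 195 of HSPA1A itself. How reads that map to several places were counted is not given in the sources used here. Reads dropped for HSPA1A and HSPA1B, whose copies are near-identical, therefore cannot be seen in these values. The same holds for members with pseudogenes, such as HSPA8, HSPD1 and HSPE1. If such reads were dropped, pseudogene rows would be low too, so the low shares do not show that none were lost.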

How the data were processed

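Per the labels' protocols, RNA of the 18 samples was sequenced with a 3′ kit. The authors' deposited table holds a normalised signal, gene counts divided by a size factor, as the values show: whole reads were recovered for 100% of values within 0.01. Per the submitters' processing notes the build was GRCh38 and the tools were featureCounts 1.5.1, STAR 2.5.2b, limma and RSEM 1.3.0, with no roles. No strand setting was found in the sources used here. Division by size factors assumes that most genes do not change, and a 3′ count does not grow with transcript length.

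Gene names and positions came from GENCODE 29 (57446 identifiers matched). log2(value + 1) was fitted with limma 3.58.1 (R 4.3.3) as 6 group means over 18 libraries with an intensity trend and 12 residual degrees of freedom, for genes at 10 or more in 3 libraries or more. Fold changes on this scale understate those of low genes. Benjamini-Hochberg adjustment ran over all 15228 genes in each of 9 comparisons, at 0.05. edgeR 4.0.16 and DESeq2 1.42.0 on the recovered reads were alternatives, with other pseudocounts, filters, scalings, blocks and libraries left out.

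The members, lists and tests were chosen with earlier results of these data known. Named were all 10 members, DDX3X, called list genes, otherwise the 2 list genes with the highest mean, and the 3 genes most like HSPA1B, DNAJB1 and HSPD1. Values of 1 list gene under this rule are not reported here. Same-numbered parental libraries deviated together (r 0.57, 0.201 and 0.28, each over 0.1) and were counted as pairs by that rule. The rule does not set pairs apart cleanly, since parental AAVS1 replicate 2 and 395 replicate 3 had r 0.152. Printed values are from the fit without pairs, and the fit with the replicate number as a block is given where it changes a call. That block ties each number across all cell lines, not in parental cells alone. In DDX3Xoe (0.231, -0.028 and 0.3) and DDX3Yoe cells (0.075, 0.114 and 0.238) not every r was over 0.1, so their libraries were not counted as pairs. No 2 replicates agreed within sampling noise. Limits from a count of 0 (3 reads) cover counting error only.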

Additional observations from a re-analysis of the deposited data

How the results depend on the processing

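Limma, edgeR and DESeq2 called 0 of the 10 members in all 9 comparisons, and so did all 33 alternative settings. The lowest adjusted p of a member was 0.0514 (HSP90AA1, parental cells, DESeq2, log2 fold change -0.90). The number of all genes called in parental cells was 271, and it moved to 927 with DESeq2, 677 with the replicate block, 83 in a fit on the compared groups and 14 without all replicate 1 libraries. The replicate block gave 0 members in every comparison, with HSP90AA1 in parental cells at an adjusted p of 0.0718, and among the genes named it changed no call beside HSPB6 and TRAP1. The block within each cell line was not run between cell lines under AAVS1, and HSPA1A drops out under a filter of 50. Signs turned only for values that passed no test, and the cause was not tested. In log2 units, BAG3 in parental cells became -0.032 after median-centring, -0.055 after quantile normalisation, -0.11 in edgeR and -0.10 in DESeq2. Quantile normalisation also gave HSF2 0.0039, HSPA4 0.00025 and DNAJC8 0.047 in parental cells, DNAJB1 0.035 and HSP90AA1 0.032 in DDX3Xoe cells, and HSPH1 -0.12 for the DDX3Yoe difference from parental cells. Leaving out the DDX3Xoe replicate 1 pair gave 0.46 for HSPA1B, -0.035 for HSPH1, 0.14 for HSPA8, 0.29 for BAG3 and 0.10 for BAG1 in DDX3Xoe cells. It gave -0.11 for HSPH1 and 0.25 for BAG3 in the difference from parental cells, and -0.048 for HSPA1A under AAVS1. Leaving out all replicate 1 libraries, an alternative added after the data were seen, gave HSPH1 -0.035, HSPD1 0.0028, HSPE1 0.21 and BAG1 -0.15 in DDX3Yoe cells. It gave HSPH1 -0.23 and BAG3 0.091 in the DDX3Xoe difference, and HSPA1B 0.28 and HSPH1 -0.23 in the DDX3Yoe difference. Leaving out 1 library at a time, the followed results for single genes whose sign turned ranged as follows. Under AAVS1, and for the guide effect between DDX3Yoe and DDX3Xoe, only the lowest and highest members with all libraries were followed. In parental cells they were BAG3 (-0.36 to 0.61), DNAJC8 (-0.17 to 0.029), HSBP1 (-0.39 to 0.13), HSF2 (-0.14 to 0.17), HSPA4 (-0.08 to 0.06), HSPA5 (-1.01 to 0.44), HSPA8 (-0.14 to 1.79), HSPA9 (-0.77 to 0.20), HSPE1 (-0.47 to 0.23), HSPH1 (-0.15 to 0.37) and UBB (-0.49 to 0.0047). In DDX3Xoe cells they were BAG1 (-0.28 to 0.11), BAG3 (-0.67 to 0.26), DNAJB1 (-0.20 to 0.12), HSP90AA1 (-0.18 to 0.12), HSPA1B (-0.66 to 0.42), HSPA8 (-1.14 to 0.44), HSPB1 (-0.31 to 0.12), HSPE1 (-0.25 to 0.76) and HSPH1 (-0.069 to 0.67). In DDX3Yoe cells they were BAG1 (-0.056 to 0.36), BAG3 (-0.051 to 0.50), HSPA8 (-0.18 to 0.51), HSPB1 (-0.36 to 0.14), HSPD1 (-0.16 to 0.10), HSPE1 (-0.45 to 0.15) and HSPH1 (-0.13 to 0.37). In the difference between DDX3Xoe and parental cells they were BAG3 (-0.94 to 0.22), HSPB1 (-0.0056 to 0.55), HSPE1 (-0.10 to 0.91) and HSPH1 (-0.15 to 0.59). In the difference between DDX3Yoe and parental cells they were BAG3 (-0.29 to 0.68), DNAJB1 (-0.027 to 0.57), HSPA1A (-1.40 to 0.062), HSPA1B (-0.68 to 0.16), HSPA8 (-1.57 to 0.35), HSPB1 (-0.0071 to 0.57), HSPE1 (-0.32 to 0.37) and HSPH1 (-0.29 to 0.30). In DDX3Xoe against parental cells under AAVS1, HSPA1A turned (-0.37 to 1.1). Members not followed turned there too without the DDX3Xoe replicate 1 libraries, HSPA8 from 0.50 to -0.53 and BAG3 from 0.10 to -0.50. In DDX3Yoe against DDX3Xoe under AAVS1, HSPA8 went from -0.51 to 0.52 and HSPA1B from -0.36 to 0.19, among others. HSPA1A rests on 0 to 37 reads a library.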
